A study of Mus musculus with 384 samples.

Results

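Transcripts of 8 genes for Fc receptors and their signalling adaptors were followed in single PDGFRB+ cells of mouse kidney. The members were chosen by name and were found once each among the 40594 genes present in both count tables. They are the activating IgG receptors Fcgr1, Fcgr3 and Fcgr4, the inhibitory IgG receptor Fcgr2b, and the adaptors Fcer1g, Tyrobp, Fyb and Scimp. Cells were sorted singly into 96-well plates from 2 gates, positive for PDGFRB and negative for CD45 (CD45-) or positive for both (CD45+), in 2 batches, from mice aged 8 weeks. UUO appears in every well name and is left unexplained by the labels, no genotype or strain is given, and no unoperated or untreated group was analysed here. Each plate was 1 sample with no animal named, so no p-value was computed, and intervals given with levels and shares cover counting error only. A well was kept with at least 10000 reads and 500 genes, which left 93 and 93 CD45- wells and 92 and 90 CD45+ wells in batches 1 and 2.

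IgG Fc receptors bind antibody on immune complexes and coated particles and are characteristic of macrophages, monocytes and neutrophils. In the kidney they are known for the response of macrophages and neutrophils to immune complexes in glomerulonephritis. Fcgr1, Fcgr3 and Fcgr4 carry no activation motif of their own and signal through the gamma chain encoded by Fcer1g, whose immunoreceptor tyrosine-based activation motif (ITAM) recruits the kinase Syk. Tyrobp encodes DAP12, a second ITAM adaptor, used by Trem2 and related receptors. Fcgr2b carries an inhibitory motif (ITIM) in its own tail and recruits the lipid phosphatase encoded by Inpp5d. Fyb encodes an intracellular adaptor that links receptor signals to integrins, and Scimp encodes a transmembrane adaptor of antigen-presenting cells that binds Lyn.

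The coding sequences of the motifs are shown because the activating receptors signal through the ITAM of an adaptor and Fcgr2b through its own ITIM. They were read from GENCODE vM21 transcripts (GRCm38), and the capitals mark the tyrosine codons, a pair in an ITAM and a single one in the ITIM. The Fcer1g stretch is exonic at chr1:171229889-171230072, minus strand, the Tyrobp stretch at chr7:30415670-30417382, plus strand, both with an intron inside these bounds, and the Fcgr2b stretch lies in 1 exon at chr1:170961071-170961088, minus strand.
Fcer1g ITAM: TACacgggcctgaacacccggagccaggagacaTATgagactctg
Tyrobp ITAM: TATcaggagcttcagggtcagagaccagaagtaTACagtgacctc
Fcgr2b ITIM: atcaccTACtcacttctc
The ITAM pattern was found in none of Fcgr1, Fcgr3, Fcgr4, Fcgr2b and Scimp, and 1 stretch of Fyb also matched it by its letters alone. ITIM matches were kept for Fcgr2b only, so the other members were not compared for that motif.

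Fcgr2b and Fcgr3 have to be read with their shared sequence in mind. Both lie on chromosome 1, minus strand, at 170958617 to 170976547 and 171051174 to 171064935, with Fcgr4 beside them at 171018920 to 171029761, plus strand. Over 509 aligned coding bases Fcgr2b and Fcgr3 were 96.5% identical, with an identical run of 129 bases, and 136 of 450 aligned windows of 60 bases had no difference. The window below, in 1 exon of each gene (chr1:170968049-170968108 and chr1:171057760-171057819), is shown because only the capitals tell the genes apart.
Fcgr2b: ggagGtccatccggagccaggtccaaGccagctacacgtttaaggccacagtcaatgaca
Fcgr3: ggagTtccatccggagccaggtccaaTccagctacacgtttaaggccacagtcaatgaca
Of all 50-base stretches in the exons, 166 were common to both genes, 9.58% of those of Fcgr3 and 2.92% of those of Fcgr2b. Of the Fcgr2b stretches 6.95% occurred in any other annotated gene. How reads from such stretches were assigned is not given in the sources used here, so the Fcgr2b and Fcgr3 levels carry this uncertainty. No 50-base stretch of Fcgr1, Fcgr4, Fcer1g, Tyrobp or Scimp was found in another gene.

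All 8 members were higher in CD45+ than in CD45- wells in both batches, by at least 4-fold on the scale of CPM, reads scaled to the same total per plate, plus 1. By the same rule 558 of 12882 genes of at least 1 CPM on average were higher in CD45+, which is 4.33%. The members were chosen with earlier results of these data known and were compared across a sort on CD45. Their count is therefore a description and not a test. The median log2 ratio of the members was 7.96 in batch 1 and 5.91 in batch 2, beside -0.39 and -0.56 over all genes tested. Ptprc, which encodes CD45 and is the gene of the sort marker, stood at 0.136 and 0.976 CPM in CD45- and at 469 and 303 CPM in CD45+. Pdgfrb, the gene of the other marker, stood at 294 and 220 CPM in CD45- but at 0.113 and 5.73 CPM in CD45+. Its transcript was thus nearly absent from the CD45+ wells, though these were sorted as PDGFRB+. In CD45+ batch 2, replicate 68 held 92.6% of the Pdgfrb reads, and without that well the level was 0.431 CPM. Against fixed marker lists, 91 of 92 and 89 of 90 CD45+ wells held at least 2 of 10 macrophage markers at 100 CPM or more. At least 2 of 5 neutrophil markers reached that level in 23 and 5 CD45+ wells, 2 T cell markers in 1 and 3, NK cell markers in 1 and 1, B cell markers in 1 and 0, and fibroblast markers in 10 and 21.

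The adaptors Fcer1g and Tyrobp were the abundant members. Reads summed over the kept CD45+ wells gave Fcer1g 10038.5 CPM in batch 1 (95% Poisson interval 10000.3 to 10076.7) and 9874 CPM in batch 2 (9838 to 9911). In CD45- wells Fcer1g stood at 87.3 and 218 CPM. Tyrobp reached 7791 CPM (7757 to 7824) and 5885 CPM (5857 to 5914) in CD45+, against 28.4 and 72.5 CPM in CD45-. Across single CD45+ wells, Fcer1g ranged from 90.7 through a median of 7874 to 27918 CPM in batch 1, and from 47.2 through 9329 to 59574 CPM in batch 2. Tyrobp ranged from 60.1 through 6086 to 30413 CPM and from 34.3 through 6016 to 35415 CPM. Both were read in every kept CD45+ well, and the median well lay near the plate level in each batch. The ranges of the gates overlapped, because single CD45- wells reached 17565 CPM of Fcer1g and 15776 CPM of Tyrobp.

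The receptors were far lower than these adaptors, and most of their reads came from a minority of wells. Per kilobase of coding sequence, both CD45+ plates in turn held 38909 and 38272 CPM of Fcer1g, 906 and 2821 of Fcgr3, 422 and 549 of Fcgr4, 275 and 367 of Fcgr2b, and 226 and 312 of Fcgr1. The last 3 lay within 2-fold of each other, less than the spread between wells, and their order turned with the length used. Per kilobase of all annotated exons Fcgr4 was at 251 and 327, Fcgr1 at 106 and 146 and Fcgr2b at 48.5 and 64.7 CPM, with Fcgr3 above them at 418 and 1302. Fcgr3, the low-affinity activating receptor, was at 726 CPM (715 to 736) and 2259 CPM (2242 to 2277) in CD45+ and at 1.33 and 73.1 CPM in CD45-. Its well values ran from 0 through 338 to 20556 CPM in batch 1 and from 11.01 through 1464 to 10933 CPM in batch 2, so Fcgr3 was present in the typical CD45+ well.

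Fcgr1, the high-affinity receptor, was at 273 CPM (267 to 280) and 378 CPM (371 to 385) in CD45+, against 0.136 and 0.346 CPM in CD45-. Its median CD45+ well held only 14.8 and 11.1 CPM, while the highest held 4378 and 4064 CPM. In all, 7 of 92 and 6 of 90 wells held 50% of its reads, where 20 and 21 wells held 50% of all reads. Fcgr4, an activating receptor for IgG2 subclasses, was at 315 CPM (308 to 322) and 410 CPM (403 to 418) in CD45+, against 14.6 and 11.1 CPM in CD45-. Its median CD45+ wells held 26.4 and 15.7 CPM and its highest 3032 and 3964 CPM. Fcgr2b, the inhibitory receptor, was at 281 CPM (275 to 287) and 375 CPM (367 to 382) in CD45+, against 0.102 CPM (0.0211 to 0.299) and 10.4 CPM in CD45-. Its median CD45+ wells held 29.3 and 29.01 CPM and its highest 3683 and 2414 CPM. For all 3 receptors the median well therefore lay far under the plate level. In batches 1 and 2, 50% of the reads lay in 6 and 4 wells for Fcgr4 and in 7 and 10 for Fcgr2b. For Fcgr3 it was 9 and 11 wells. In batch 2 the upper quartile of Fcgr2b wells was 480 CPM, above its plate level.

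Fyb and Scimp lay in the range of the receptors, at 301 and 345 CPM per kilobase of coding sequence for Fyb and 468 and 1112 for Scimp. Fyb was at 740.0 CPM (729.7 to 750.5) and 848 CPM (838 to 859) in CD45+ and at 0.204 and 1.04 CPM in CD45-, with CD45+ well medians of 166 and 95.9 CPM and highest wells of 10173 and 7008 CPM. Scimp was at 211 CPM (205 to 216) and 500.5 CPM (492 to 509) in CD45+ and at 0.0682 CPM (0.00825 to 0.246) and 0.378 CPM in CD45-, with well medians of 7.91 and 27.3 CPM and highest wells of 2533 and 5898 CPM. Fyb had the largest gate ratios of the members, log2 9.27 and 8.70. That of Fcgr4 in batch 1, log2 4.34, rested on 1 CD45- well. Of the Fyb exon stretches of 50 bases, 9.62% also occur in other annotated genes.

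**Figure D1:**
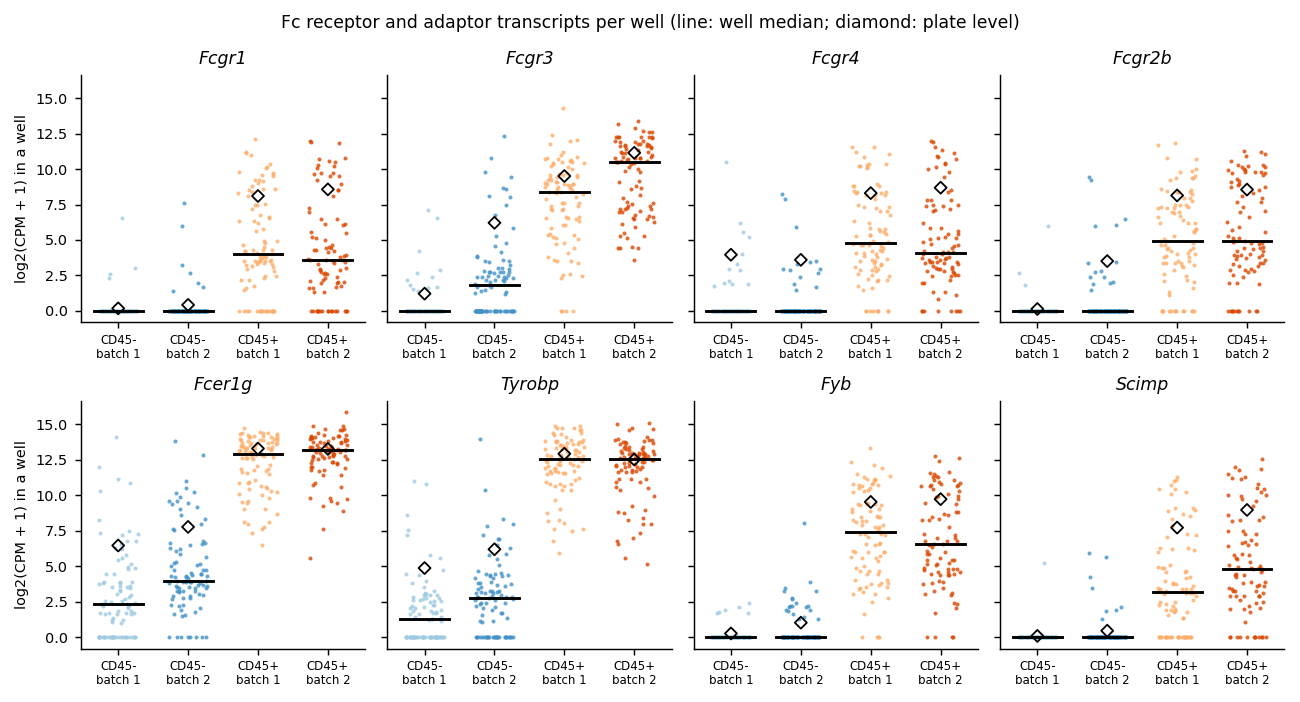
Each dot is 1 kept well, on the vertical axis as log2(CPM + 1), for the 2 gates and 2 batches on the horizontal axis, with a line at the well median and a diamond at the plate level. In CD45+ wells median and plate level nearly coincide for Fcer1g and Tyrobp, while the Fcgr1 medians of 14.8 and 11.1 CPM lie far under the plate levels of 273 and 378 CPM.

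The 2 CD45+ plates differed most in Fcgr3 and Scimp. Fcgr3 was 3.11-fold and Scimp 2.37-fold higher in batch 2, while the other 6 members lay between 0.755-fold (Tyrobp) and 1.38-fold (Fcgr1). Among 1320 genes of at least 100 CPM on average in the CD45+ plates, 14.8% were at least 2-fold higher and 9.85% at least 2-fold lower in batch 2. Of wells with 50000 reads or more, 19 of 76 and 44 of 78 held at least 1000 CPM of Fcgr3, and 8 and 13 that much Scimp. Each batch is 1 plate per gate, so batch and any animal difference cannot be told apart. Neutrophil markers summed to 1553 and 390 CPM, macrophage markers to 19125 and 31671 CPM and fibroblast markers to 729 and 2726 CPM in batches 1 and 2 of CD45+, and their part in the batch difference was not tested.

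Receptor values spread over a wide range within CD45+ wells, and 100 CPM is used below as a fixed level, not as a border between kinds of wells. Of the wells with 50000 reads or more, 20 of 76 and 17 of 78 held at least 100 CPM of Fcgr1. In batch 1, 15 wells held no Fcgr1 read, 34 held some but under 20 CPM, and 7 lay from 20 to 100 CPM. Fcgr2b and Fcgr3 had more values near that level, with 13 and 16 wells from 20 to 100 CPM in batch 1 and 15 and 15 in batch 2. In the 56 and 61 wells under 100 CPM of Fcgr1 the median was 2 reads and 1 read, with at most 19 and 27. At the same level of 100 CPM Fcgr4 was found in 24 and 19 wells, with medians of 774 and 1005 CPM in them and of 2.5 reads and 2 reads in the rest. Fcgr2b was found in 28 and 30 wells, with medians of 357 and 862 CPM in them and of 1.5 reads and 3 reads in the rest. Fcgr3 was found in 49 and 62 wells, Fyb in 40 and 36 and Scimp in 13 and 23. Fcer1g was found in 75 and 77 wells and Tyrobp in 75 and 75. In CD45- wells of that depth the same level was reached by Fcer1g in 5 of 79 and 12 of 82, by Tyrobp in 2 and 3, by Fcgr3 in 0 and 6, by Fcgr4 in 1 and 2, by Fcgr2b in 0 and 2, and by Fcgr1, Fyb and Scimp in 0 and 0.

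Shares by a single read were higher. With each well thinned to 50000 reads, at least 1 read of Fcgr1 was seen in 42 of 76 CD45+ wells in batch 1 (55.3%, exact 95% interval 43.4 to 66.7) and in 37 of 78 in batch 2 (47.4%, 36.01 to 59.1). The counts were 66 and 75 wells for Fcgr3, 52 and 49 for Fcgr4, 52 and 51 for Fcgr2b, 62 and 65 for Fyb and 32 and 48 for Scimp, and all wells for Fcer1g and Tyrobp. In thinned CD45- wells the counts were 25 of 79 and 50 of 82 for Fcer1g, 12 and 29 for Tyrobp, 4 and 13 for Fcgr3, and at most 6 for any other member. The 10 CD45+ wells left out for holding under 10000 reads had Fcer1g at 5512 to 9651 CPM, close to the plate level of full wells. They also had Tyrobp at 5287 to 21458 CPM and Fcgr3 at 366 to 4111 CPM. In reads, they held 37 to 94 of Fcer1g and 47 to 209 of Tyrobp. The part of such reads in the shares by 1 read and in the adaptor counts at 100 CPM was not tested.

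**Figure D2:**
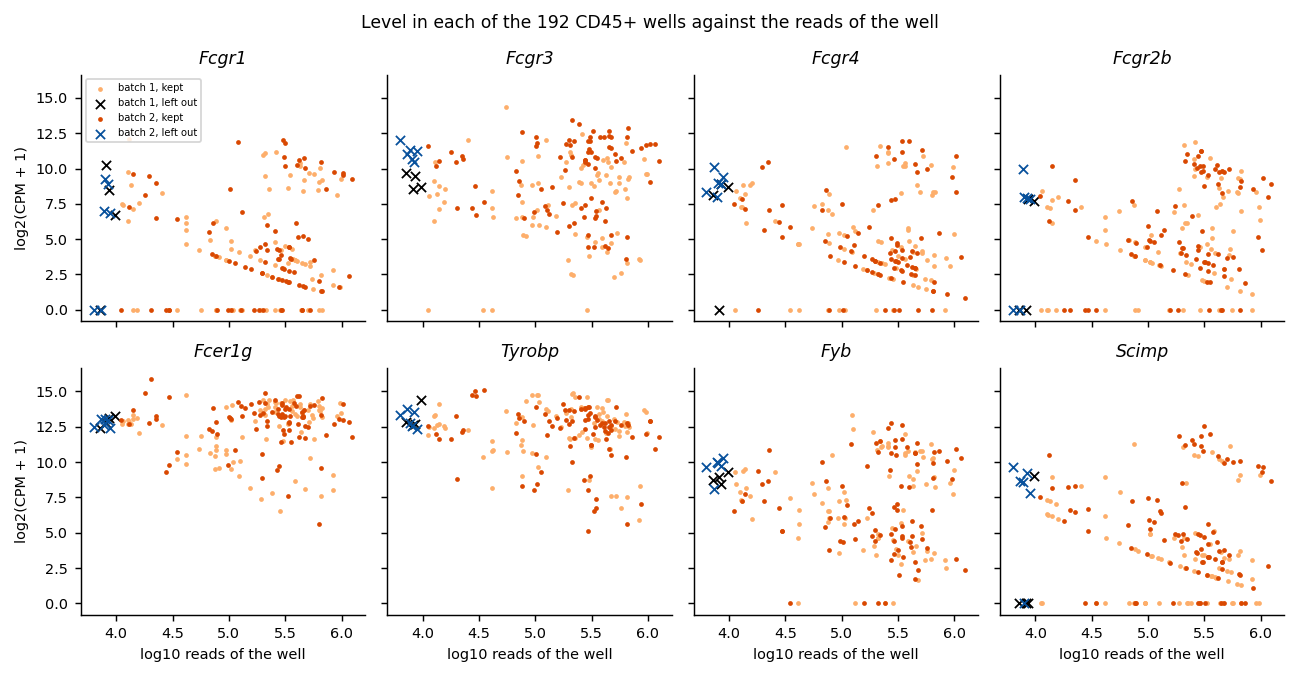
Each point is 1 CD45+ well, with log10 of its reads on the horizontal axis and log2(CPM + 1) on the vertical axis, crosses marking the 4 and 6 wells left out of batches 1 and 2. Receptor levels in deep wells spread up to more than 1000 CPM, with Fcgr2b and Fcgr3 values also around 100 CPM, and the crosses for Fcer1g and Tyrobp lie at the level of full wells.

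The activating receptors were nearly always found with their adaptor. At 100 CPM, 58 of 76 CD45+ wells in batch 1 and 63 of 78 in batch 2 held an activating receptor, and all 58 and all 63 also held Fcer1g. Fcer1g was also found in 17 of 18 and 14 of 15 wells without an activating receptor, so its presence did not set receptor wells apart. Both Fcer1g and Tyrobp reached 100 CPM in 74 of 76 and 74 of 78 wells, Fcer1g alone in 1 and 3, and Tyrobp alone in 1 and 1. Where a well had to hold more reads than any of its plate's wells under 10000 reads, Fcer1g and Tyrobp were found together in 55 of 76 and 67 of 78 wells. That rule found Fcer1g in fewer wells than 100 CPM did, 68 and 76 in place of 75 and 77. It found an activating receptor in more wells, 71 and 64 in place of 58 and 63. Of these, 6 of 71 in batch 1 and 0 of 64 in batch 2 lacked Fcer1g.

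Fcgr2b was mostly found alongside the activating receptors. At 100 CPM, 27 and 28 wells held both kinds, 31 and 35 only an activating receptor, 1 and 2 only Fcgr2b, and 17 and 13 no receptor. Fcgr2b reached that level in 26 of 49 wells with Fcgr3 and in 2 of 27 without it in batch 1, and in 28 of 62 and 2 of 16 in batch 2. It was found in 14 of 20 wells with Fcgr1 against 14 of 56 without in batch 1, and in 10 of 17 against 20 of 61 in batch 2. Fcgr2b counts carry the uncertainty of the sequence shared with Fcgr3 in both comparisons, and its part was not tested. The number of receptors per well spread widely, with 23, 16, 14 and 6 wells holding 1, 2, 3 and 4 receptors in batch 1, and 23, 23, 17 and 2 in batch 2.

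Fyb was found more often in wells with Fcgr4 than in wells without it, as a description of these wells. At 100 CPM it was seen in 20 of 24 wells with Fcgr4 (83.3%) and in 20 of 52 without (38.5%) in batch 1, and in 15 of 19 (78.9%) and 21 of 59 (35.6%) in batch 2. With Fcgr3 the corresponding counts were 29 of 49 and 11 of 27, and 31 of 62 and 5 of 16. Scimp was found in 9 of 24 wells with Fcgr4 and 4 of 52 without in batch 1, and in 8 of 19 and 15 of 59 in batch 2. Fyb and Scimp reached 100 CPM together in 9 and 11 wells, and neither did in 32 and 30.

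**Figure D3:**
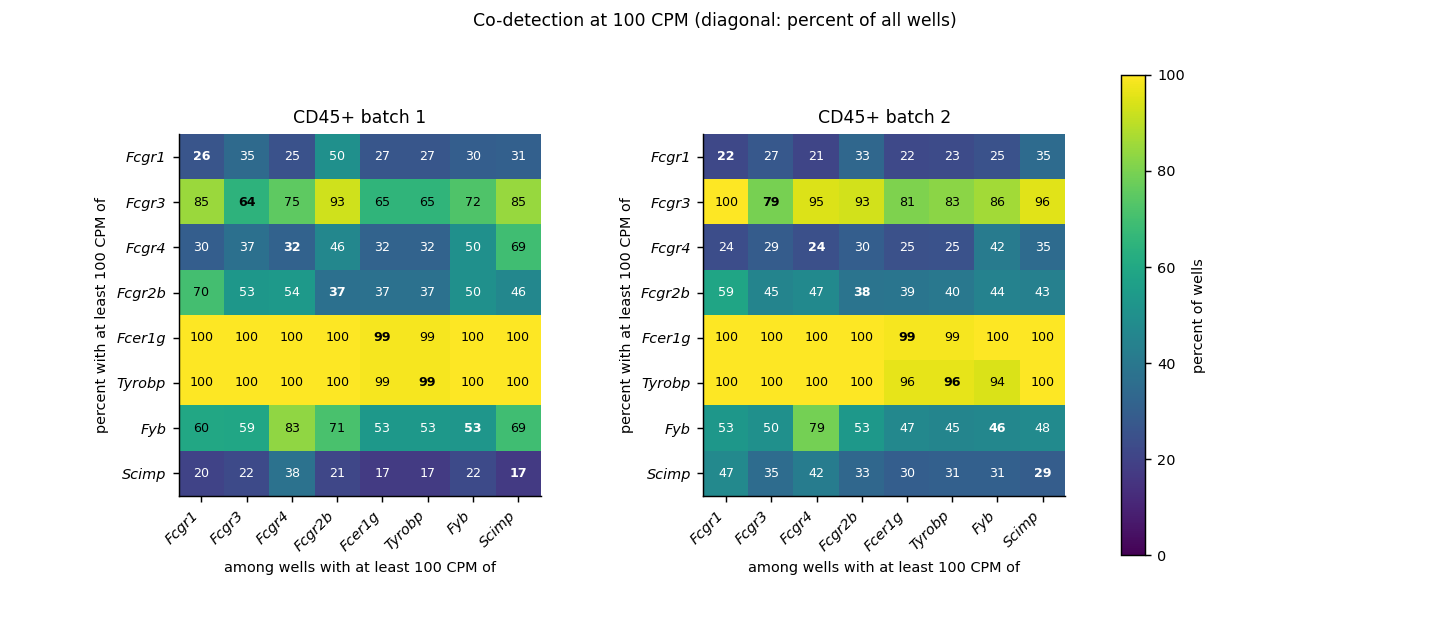
Each cell gives the percent of CD45+ wells with 50000 reads or more that held at least 100 CPM of the row gene, among the wells that held that much of the column gene, with the percent of all 76 or 78 wells on the diagonal. The Fcer1g and Tyrobp rows are near 100 throughout, and Fyb is highest in the Fcgr4 column, at 83.3% and 78.9%.

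Levels within CD45+ wells gave a like picture, as a description over 76 and 78 wells that share a plate and a total of reads. Of the 28 pairs of members, 5 had a Pearson r of log2(CPM + 1) over 0.3 in both batches. They were Fcer1g with Tyrobp (0.43 and 0.42), Fcgr3 with Fcer1g (0.42 and 0.40), Fcgr4 with Fyb (0.47 and 0.37), Fcgr2b with Fcer1g (0.50 and 0.33) and Fcgr3 with Fcgr2b (0.48 and 0.32). By Spearman's rho 3 of these 5 stayed over 0.3 in both batches, and Fcgr3 with Fcer1g (0.34 and 0.26) and Fcgr3 with Fcgr2b (0.45 and 0.297) did not. Fcgr1 and Fcgr4 showed no such relation (-0.01 and 0.07). Fcer1g with Fyb differed between the plates, at 0.45 in batch 1 and -0.03 in batch 2. By the smaller r of both batches among 2763 genes, Fcgr3 was most like Apoe (0.44 and 0.60), Fcgr2b also Apoe (0.45 and 0.43), and Fcgr1 most like Lgmn (0.35 and 0.30) and C1qc (0.44 and 0.30). Fcer1g and Tyrobp were both most like Ctss (0.71 and 0.48, and 0.59 and 0.57), the gene of a lysosomal protease. Tyrobp was next most like H2-Aa and Cd74, genes of antigen presentation, at 0.47 and 0.46 and at 0.45 and 0.47. Fyb was most like Psmb9 (0.38 and 0.38), and Fcgr4 was most like Fyb and then Guca1a (0.34 and 0.42). Scimp had only weak matches, Ctsc (0.31 and 0.28), Gps2 (0.34 and 0.27) and Col14a1 (0.35 and 0.25).

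The inhibitory receptor took a minor part of the receptor reads. Of 42237 reads of the 4 receptors in CD45+ batch 1, 17.6% were from Fcgr2b (exact interval 17.3 to 17.98), and of 97408 in batch 2, 10.9% (10.7 to 11.1). Fcgr3 gave 45.5% and 66.02%, Fcgr4 19.8% and 11.99%, and Fcgr1 17.1% and 11.05%. The lower Fcgr2b share in batch 2 was not a lower level, as Fcgr2b itself was 1.33-fold and Fcgr3 3.11-fold higher there. Per base of coding sequence the Fcgr2b share was 15.1% and 9.07%, and per base of all annotated exons, which span 5790 bases in Fcgr2b and 1736 in Fcgr3, it was 5.90% and 3.52%. In the median well of at least 10 receptor reads the share was 7.63% and 6.74%. The share passed 50% in 3 of 82 and 4 of 87 such wells, with the highest at 90.5% and 98.6%, and was under 5% in 33 and 40. Without the wells that held lymphocyte or neutrophil markers, counted over all kept wells as above, the share of receptor reads was 19.8% and 10.9%. That left 66 of 92 and 81 of 90 wells. Fcgr3 led the receptors in 45 and 70 wells, Fcgr4 in 20 and 6, Fcgr1 in 11 and 7, and Fcgr2b in 6 and 4. The cut of 10 receptor reads is low. Fcgr3 alone had 3 to 6 reads in the CD45+ wells under 10000 reads of batch 1 and 12 to 26 in those of batch 2. Some wells led by Fcgr3 in batch 2 held no more, such as replicate 59 with 12 receptor reads. The part of such wells in the well shares and in these counts was not tested.

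**Figure D4:**
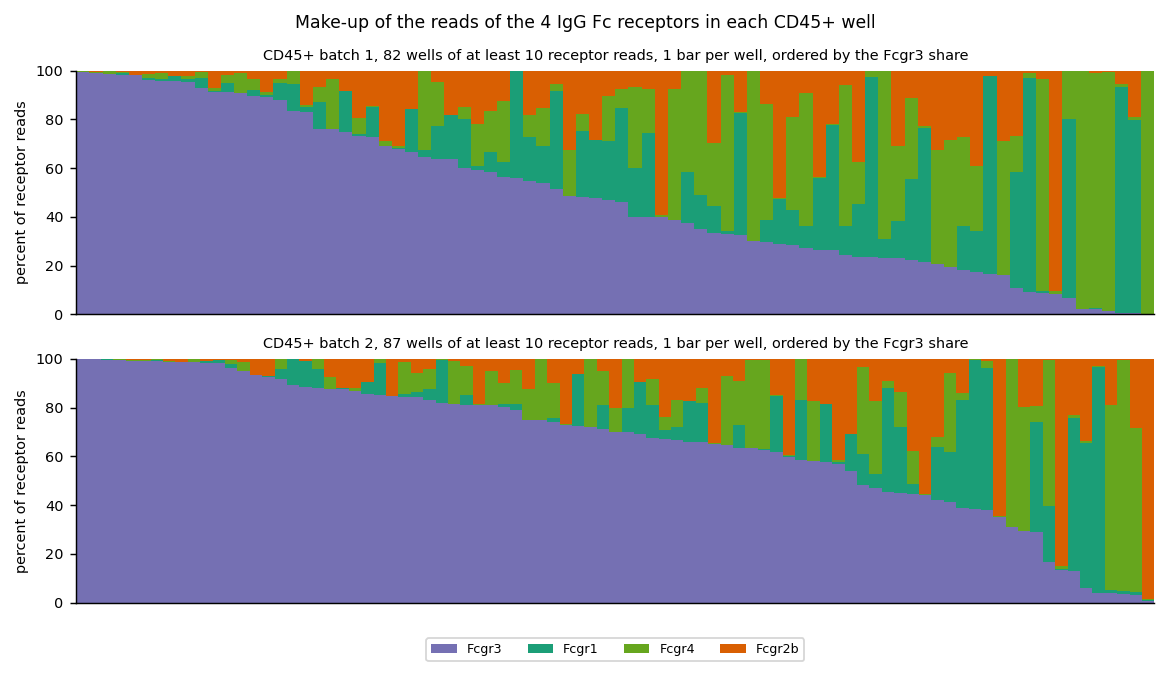
Each bar is 1 CD45+ well of at least 10 receptor reads, and its colours give the percent of those reads from each receptor, ordered by the Fcgr3 share. Fcgr3 leads in 45 of 82 wells of batch 1 and 70 of 87 wells of batch 2, and wells led by Fcgr1, Fcgr4 or Fcgr2b gather at the right. The bars include wells with no more receptor reads than batch 2 wells under 10000 reads held of Fcgr3 alone.

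CD45- wells held few member reads, and a small number of wells carried most of them. Of the CD45- wells with 50000 reads or more, 7 of 79 and 14 of 82 held at least 1 member at 100 CPM. These wells carried 77.6% and 94.03% of the plate's Fcer1g reads, a share that follows in part from picking them by member level. Their share was 0% and 6.06% for Fyb and 25% and 9.09% for Fcgr1. For Fcgr3 it was 7.69% and 94.9%, and for Fcgr2b 0% and 86.7%. Replicate 38 of batch 1, with Fcer1g at 17565 CPM, was not among them because it held 23569 reads. Ptprc was at 0 in 7 of 7 and 11 of 14 of them and reached 100 CPM in none. However, the median kept CD45+ well also stayed under 100 CPM of Ptprc, at 28.4 and 12.998 CPM in batches 1 and 2. A Ptprc read was seen in 84 of 92 and 77 of 90 kept CD45+ wells. In kept CD45- wells it was seen in 4 of 93 and 12 of 93. Whether the CD45- wells with a member at 100 CPM held leukocytes was not tested. Col1a1, a collagen gene, reached 100 CPM in all 7 and all 14 of these CD45- wells. It did so in 66 of 72 and 62 of 68 other CD45- wells. Cd74, a gene of antigen presentation, reached that level in 7 of 7 and 10 of 14, beside 4 of 72 and 20 of 68 other wells. C1qb, a macrophage marker, reached 100 CPM in 5 and 6 of them, beside 6 of 72 and 7 of 68 other wells. In 6 and 8 of them only 1 member reached 100 CPM. Replicate 51 of batch 2 held 5 members at 100 CPM, with Fcer1g at 14616, Tyrobp at 15776, Fcgr3 at 5231, Fcgr2b at 700 and Fcgr4 at 230 CPM, next to C1qb at 18364, Cd74 at 35964 and Col1a1 at 1142 CPM.

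Single CD45- wells set several of the low levels. Without replicate 66, which held 95.1% of its reads, Fcgr4 in batch 1 fell from 14.6 to 0.722 CPM, and the log2 gate ratio was 7.52 in place of 4.34. In batch 2, Fcgr4 was 1.399 CPM without replicate 14, with a ratio of 7.42 in place of 5.08. Fcgr2b in batch 2 was 3.82 CPM without replicate 35 (6.28 in place of 5.04), and Tyrobp in batch 2 was 18.6 CPM without replicate 51 (8.23 in place of 6.32). Tyrobp in batch 1 was 14.9 CPM without replicate 32 and 16.8 CPM without replicate 89 (8.94 and 8.77 in place of 8.05), and Fcgr3 in batch 1 was 0.482 CPM without replicate 91 (8.94 in place of 8.29). Each of these raised the ratio, so no call depended on 1 well.

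The low member reads of CD45- wells went with the plate position. Per the labels' protocols the wells of a plate carry barcodes, plates carry an index and all plates were pooled for sequencing, and the same 96 positions were used in each plate. Over 96 positions, the reads of Tyrobp in a CD45- well and in the CD45+ well at the same position of the same batch had a Spearman rho of 0.54 in batch 1 and 0.73 in batch 2. For Fcer1g rho was 0.42 and 0.45. At the 48 positions with more Tyrobp in the CD45+ well, the median CD45- well had 2 reads and 4 reads, against 0 and 0.5 at the other 48. Over the 8 members in both batches rho ranged from -0.04 to 0.73 with a median of 0.33, and 12 of 16 values were over 0.2. Paired with the CD45+ plate of the other batch, the median was 0.07 and 1 of 16 was over 0.2. Total reads at the same position had rho of 0.02 and -0.02, and Col1a1 had 0.49 and 0.36. The cause was not tested, and the comparison was chosen after the values were seen.

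**Figure D5:**
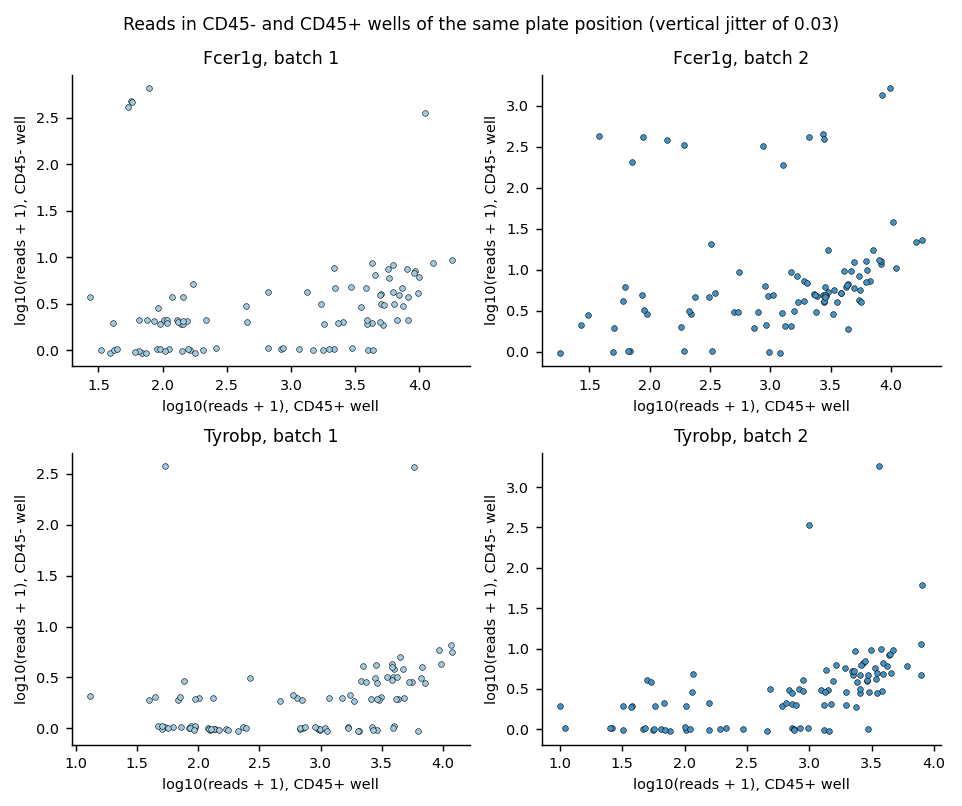
Each point is 1 of 96 plate positions, with log10(reads + 1) in the CD45+ well on the horizontal axis and in the CD45- well of the same batch on the vertical axis, for Fcer1g and Tyrobp. CD45- wells at positions with many CD45+ reads hold more reads, with rho of 0.42 and 0.45 for Fcer1g and 0.54 and 0.73 for Tyrobp, and a separate set of CD45- wells lies far above the rest.

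Partner genes from fixed lists were mostly higher in CD45+ as well, to be read against the 4.33% of all genes. The lists were also chosen with earlier results of these data known, so their counts are descriptions. Of 12 listed receptors that passed the level of 1 CPM, most of them known to pair with Fcer1g or Tyrobp, 11 were called higher, with Trem2 at 358 and 283 and Clec4n at 345 and 238 CPM in CD45+. The list also holds Csf1r, a receptor kinase with a catalytic domain of its own, at 331 and 709 CPM. Clec5a, the exception, stood at 6.38 and 110 CPM. Of 10 other ITIM receptors 9 were higher, with Clec4a2 at 357 and 645, Lilrb4a at 249 and 477, Clec12a at 176 and 411, Pilra at 177 and 314 and Sirpa at 212 and 134 CPM. Of 5 other Fc receptors only Fcrl1 was (10.99 and 25.6 CPM), and Fcgrt, the neonatal Fc receptor of many cell types, stood at 183 and 262 CPM in CD45+ and 288 and 716 CPM in CD45-. Of 7 other adaptors 3 were higher, Lat2 at 309 and 424, Cd79b at 133 and 124 and Hcst at 78.1 and 114 CPM.

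Downstream genes were split. Of 12 kinases and enzymes 7 were higher in CD45+, among them Rac2 at 520 and 1012, Lyn at 108 and 137 and Vav1 at 119 and 104 CPM. Syk, the kinase that binds ITAMs, was not called, at 21.6 and 7.13 CPM in CD45+ against 7.97 and 0.0945 CPM in CD45-, and was read in 17 of 92 and 8 of 90 CD45+ wells. Of 9 scaffolds only Lcp2 was called (49.7 and 33.9 CPM), and Skap2, a binding partner of Fyb, stood at 160 and 107 CPM in CD45+ and 39.9 and 177 CPM in CD45-. Of 8 inhibitory enzymes 4 were higher, with Ptpn6 at 177 and 249 and Inpp5d at 85.95 and 116 CPM. No gene of these lists was called higher in CD45-, where the background was 12.9% of genes.

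The promoters of the receptors are shown because the 4 receptors were high in the same gate and differed in which wells they filled. Each sequence is the 250 bases before the RefSeq start (GRCm38.p6). Capitals mark GAGGAA or its reverse complement TTCCTC, a form of the sites of the myeloid factor PU.1, searched on both strands.
Fcgr1, chr3:96293970-96294219, minus strand: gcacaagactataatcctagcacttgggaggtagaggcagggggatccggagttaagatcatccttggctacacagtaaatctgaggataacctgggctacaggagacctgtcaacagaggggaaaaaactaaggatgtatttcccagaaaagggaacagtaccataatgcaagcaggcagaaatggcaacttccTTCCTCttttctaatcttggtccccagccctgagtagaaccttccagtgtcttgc
Fcgr3, chr1:171059395-171059644, minus strand, 1 of 2 starts: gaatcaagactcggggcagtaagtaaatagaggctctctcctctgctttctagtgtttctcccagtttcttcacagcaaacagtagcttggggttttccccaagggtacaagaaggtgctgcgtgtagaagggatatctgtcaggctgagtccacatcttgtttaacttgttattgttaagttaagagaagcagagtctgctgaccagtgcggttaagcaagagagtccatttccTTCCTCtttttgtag
Fcgr4, chr1:171018676-171018925, plus strand: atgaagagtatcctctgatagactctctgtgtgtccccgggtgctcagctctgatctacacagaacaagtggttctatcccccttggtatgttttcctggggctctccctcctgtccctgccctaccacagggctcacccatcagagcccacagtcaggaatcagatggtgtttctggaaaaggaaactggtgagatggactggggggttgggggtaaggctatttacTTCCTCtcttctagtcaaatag
Fcgr2b, chr1:170976072-170976321, minus strand: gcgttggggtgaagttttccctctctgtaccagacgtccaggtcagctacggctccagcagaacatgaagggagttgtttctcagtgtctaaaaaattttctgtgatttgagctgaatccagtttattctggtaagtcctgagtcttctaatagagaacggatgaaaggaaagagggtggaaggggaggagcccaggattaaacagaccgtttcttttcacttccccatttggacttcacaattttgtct
The motif lay 55, 15 and 22 bases before the start in Fcgr1, Fcgr3 and Fcgr4. The whole motif was not in the Fcgr2b window, though its shorter part GGAA was, and that part was not counted. Of the 6 members that have a listed promoter, 4 held the whole motif, Fyb being the fourth, and Fcer1g did not. Of 27025 RefSeq genes, 25.9% held it in a promoter, as did 23.3% of 32851 promoters of that length, and a match is a description of the letters only.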

How the data were processed

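Single-cell FACS-seq of mouse kidney was analysed, 384 wells of 4 plates. Both deposited tables list unnormalized counts of reads by gene and well, judged by their whole values and unequal totals. Per the labels' protocols, complementary DNA was made with a Clontech SMARTer kit, and the tools named in the submitters' processing notes are featureCounts 1.4.5, Subread and STAR (given as 3.0.4). Their roles, the strand setting, the treatment of reads with several matches and the genome build are not given in the sources used here, and molecular identifiers are not stated. Counting whole reads over unlike transcript lengths favours long genes, and reads of near-identical stretches can be lost or shared.

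Lines that repeated a gene identifier (598 and 595, none of a member) were dropped. The median kept well held 225559 to 288818 reads by plate, and wells held 5323 to 1246070. The 16 wells under 10000 reads or 500 genes were left out. Levels are CPM of reads summed over a plate's kept wells, with exact Poisson 95% intervals, and gate ratios are log2 of CPM plus 1, which understates genes near 0. A call needed a ratio of 4-fold or more towards 1 gate in each batch. Shares were computed after thinning wells to 50000 reads (79 and 82 CD45-, 76 and 78 CD45+ wells), with exact Clopper-Pearson intervals, and at 100 CPM in unthinned wells of that depth. Per-length values used GENCODE vM21 exons or coding sequence. No doublet caller was run, and no explanation of free or carried-over reads was modelled. Alternatives were other pseudocounts, filters, thresholds, depths, edgeR 4.0.16 TMM and DESeq2 1.42.0 size factors on plate sums, and leaving out each well. The comparisons of plate positions, of wells richer than near-empty wells and per coding length were added after the data were seen. Python 3.11.15, numpy 2.4.6, pandas 2.3.3, scipy 1.17.1 and R 4.3.3 were used.

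The members and lists were chosen with earlier results of these data known. Named were all members, the called genes of each list with the highest mean CD45+ level, at most 6, Clec5a, Fcgrt, Syk and Skap2 chosen after their values were seen, up to 3 genes most like each member, and Ptprc and Pdgfrb. The likeness was Pearson r over genes read in at least 20% of wells.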

Additional observations from a re-analysis of the deposited data

Results flagged for a closer look

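The wells left out for holding under 10000 reads entered no main level, ratio or share, and in the CD45+ plates they held Fcer1g and Tyrobp above the highest value in the corresponding CD45- wells. Fcer1g had a median of 7972 CPM in 4 such wells of batch 1 and 7327 CPM in 6 of batch 2, against highest values of 448 and 2885 CPM in the 3 and 3 CD45- wells left out. Tyrobp had medians of 6968 and 8581 CPM, against highest values of 188 and 1416 CPM. The cause was not tested.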

How the results depend on the processing

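All 8 members stayed called higher in CD45+ at 2-fold and 8-fold, with pseudocounts of 0.1 and 10 CPM, with all wells, with wells of at least 50000 reads, with the mean of well CPM, with repeated lines in the totals, and with TMM or DESeq2 factors. The 16 member ratios kept their call in all 160 alternative values, from log2 3.72 to 11.25. TMM and DESeq2 factors moved the median log2 ratio of all genes by 0.29 and 0.31 in batch 1 and by 0.46 and 0.49 in batch 2. The count of genes higher in CD45- fell from 1663 to 956 with a filter of 10 CPM, which tests fewer genes.

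The Fcgr2b share of receptor reads (17.6% and 10.9%) was 5.90% and 3.52% per base of exons, 15.1% and 9.07% per coding base, 13.5% and 12.6% as the mean of wells, and 19.8% in batch 1 without wells of lymphocyte or neutrophil markers. Leaving out 1 well gave 16.5% to 18.4% and 10.3% to 11.3%. So the share was lower in batch 2 for each of these, but the difference nearly closed for the mean of wells. In the median well it was also small, at 7.63% and 6.74%. Activating-receptor wells that also held Fcgr2b were 71.2% and 67.1% with 1 read at 50000 reads, 52.6% and 50.6% at 20000 reads, 46.6% and 44.4% at 100 CPM, and 51.6% in batch 2 above near-empty wells. Those that held Fcer1g were 91.5% in batch 1 by the last rule, in place of 100%. Wells with Fcgr4 that also held Fyb were 75.7% in batch 2 at 20000 reads, in place of 89.8%. Of the member levels under other settings, 43 left the counting interval and 85 did not, and of the shares by 1 read 59 did and 37 did not. Depth limits shares by 1 read. No paired analysis was possible because no test was made over samples and replicate numbers only follow accession order. Wells of the same plate position were compared as a description.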
